A study of Mus musculus with 18 samples.

Results

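The nuclear receptor genes of the mouse liver were examined in mice that carry or lack the farnesoid X receptor (FXR, Nr1h4), with and without its synthetic agonist GW4064. The members were listed by name: 37 receptor genes other than FXR, SHP, LRH-1, PXR, CAR and the clock receptors. Of these, 33 could be measured, each by 1 probe set, out of 12394 genes with a probe set of their own. No probe set was named for Nr1h2, Nr2e1, Nr2e3 or Nr3c2 alone, and these 4 were not analysed here. RNA from 18 liver samples was hybridised, 1 array each, in 6 groups of 3: WT, liver FXR KO and whole-body FXR KO mice, each given vehicle or GW4064. All were male mice of 10 to 16 weeks on a C57BL/6J background, and every group was dosed by oral gavage. The labels give 2 doses of 150 mg/kg GW4064, with livers taken 2 hours after the last. The methods of the study describe an experiment in WT mice alone, with a different dose, number of doses and an overnight fast. They mention no knockout mice, so they may describe other mice than these. The liver FXR KO mice are labelled AFXR Cre+, and no promoter for the Cre is named in the labels, while the whole-body knockout lacks FXR in other tissues too. The controls are labelled only as wild type, so an effect of Cre itself and the loss of FXR in the liver cannot be told apart.

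Nuclear receptors are transcription factors that bind hormone response elements in DNA, many of them as heterodimers with a retinoid X receptor (RXR). Ligands such as bile acids, fatty acids, oxysterols, steroids, thyroid hormone and retinoic acid switch them from binding corepressors to binding coactivators. In hepatocytes, HNF4α maintains the expression of liver genes, PPARα drives fatty acid oxidation in fasting, LXRα senses sterols, and FXR senses bile acids and lowers their synthesis.

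Over all 6 groups, limma's F-test passed 3 of 33 receptor genes, Hnf4a, Rarb and Nr4a1 (9.09%, beside 6.08% of all genes). Hnf4a, which encodes HNF4α, was lower in whole-body FXR KO livers than in liver FXR KO livers with vehicle, and lower than in WT livers with GW4064. The first of these calls was lost for 14 of 18 arrays left out in turn, and the other probe sets of Hnf4a differed. Ppara, which encodes PPARα, was lower in whole-body than in liver FXR KO livers with GW4064. Neither the Ppara call nor the Hnf4a call with GW4064 passed without 2 arrays that stood apart from the rest. Rarb, a retinoic acid receptor gene, was 2.04 fold higher in whole-body FXR KO than in WT livers with GW4064, a log2 difference of 1.03. It was 0.54 and did not pass without the same 2 arrays. Stellate cell and fibroblast markers were higher in the same comparison (median 1.01, and 0.62 without those arrays). They were also higher in liver FXR KO than in WT livers with GW4064 (median 0.48, and 0.19 without those arrays). No receptor passed the adjusted test for GW4064 against vehicle in any genotype, and few genes of any kind did (0.194% in WT and 0% in each knockout). The values are log2 expression, so a difference of 1 is a doubling. Tests were run with limma over all arrays, and p-values were adjusted across the 12394 genes after Benjamini and Hochberg, and those under 0.05 passed.

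Nr1h4 itself followed the labels in all 18 arrays, with 8.83 to 9.39 in WT livers and 3.98 to 4.69 in both knockouts. The hepatocyte markers lay close to their WT vehicle mean in all arrays, with array medians from -0.15 to 0.08. A pair of arrays stood apart from the rest by their mean correlation with all arrays, WT GW4064 replicate 1 (0.984) and whole-body FXR KO GW4064 replicate 3 (0.984), while the others had 0.991 or more. Differences called below whose groups hold either array are also given without the pair, and the F-tests over all groups are not. Nothing in the labels says that the 3 samples of a group came from separate mice, so p-values measure the spread between these samples, and no batch is given. In whole liver, fewer cells of a type and less RNA per cell cannot be told apart.

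The levels of most members were steady, and 4 of the 33 spread by more than 1 log2 unit over the 18 arrays (Ppara, Rarb, Nr2c2 and Nr4a1). This spread was not compared with that of all genes. Among the RXR genes, which encode the common heterodimer partners, Rxra ranged from 9.57 to 10.07, Rxrb from 8.44 to 8.99 and Rxrg from 5.71 to 5.98. The lipid sensors ranged from 10.48 to 11.83 for Ppara, from 4.93 to 5.57 for Ppard and from 8.50 to 8.77 for Nr1h3, the gene of LXRα. The steroid hormone receptor genes ranged from 3.88 to 4.46 for Esr1, from 4.14 to 4.66 for Esr2, from 3.49 to 3.76 for Pgr and from 8.89 to 9.44 for Nr3c1, the gene of the glucocorticoid receptor. The estrogen-related receptor genes ranged from 6.67 to 6.97 for Esrra, from 4.01 to 4.42 for Esrrb and from 3.92 to 4.66 for Esrrg. These are levels of separate probe sets, so they are not compared between genes. Of the 33 members, 16 were among the 40% of genes with the lowest mean signal, where a probe set may read mostly background. They are Ppard, Hnf4g, Esr1, Esr2, Pgr, Esrrb, Esrrg, Rara, Rarb, Vdr, Rorb, Nr2f1, Nr4a2, Nr5a1, Nr6a1 and Nr0b1.

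**Figure D1:**
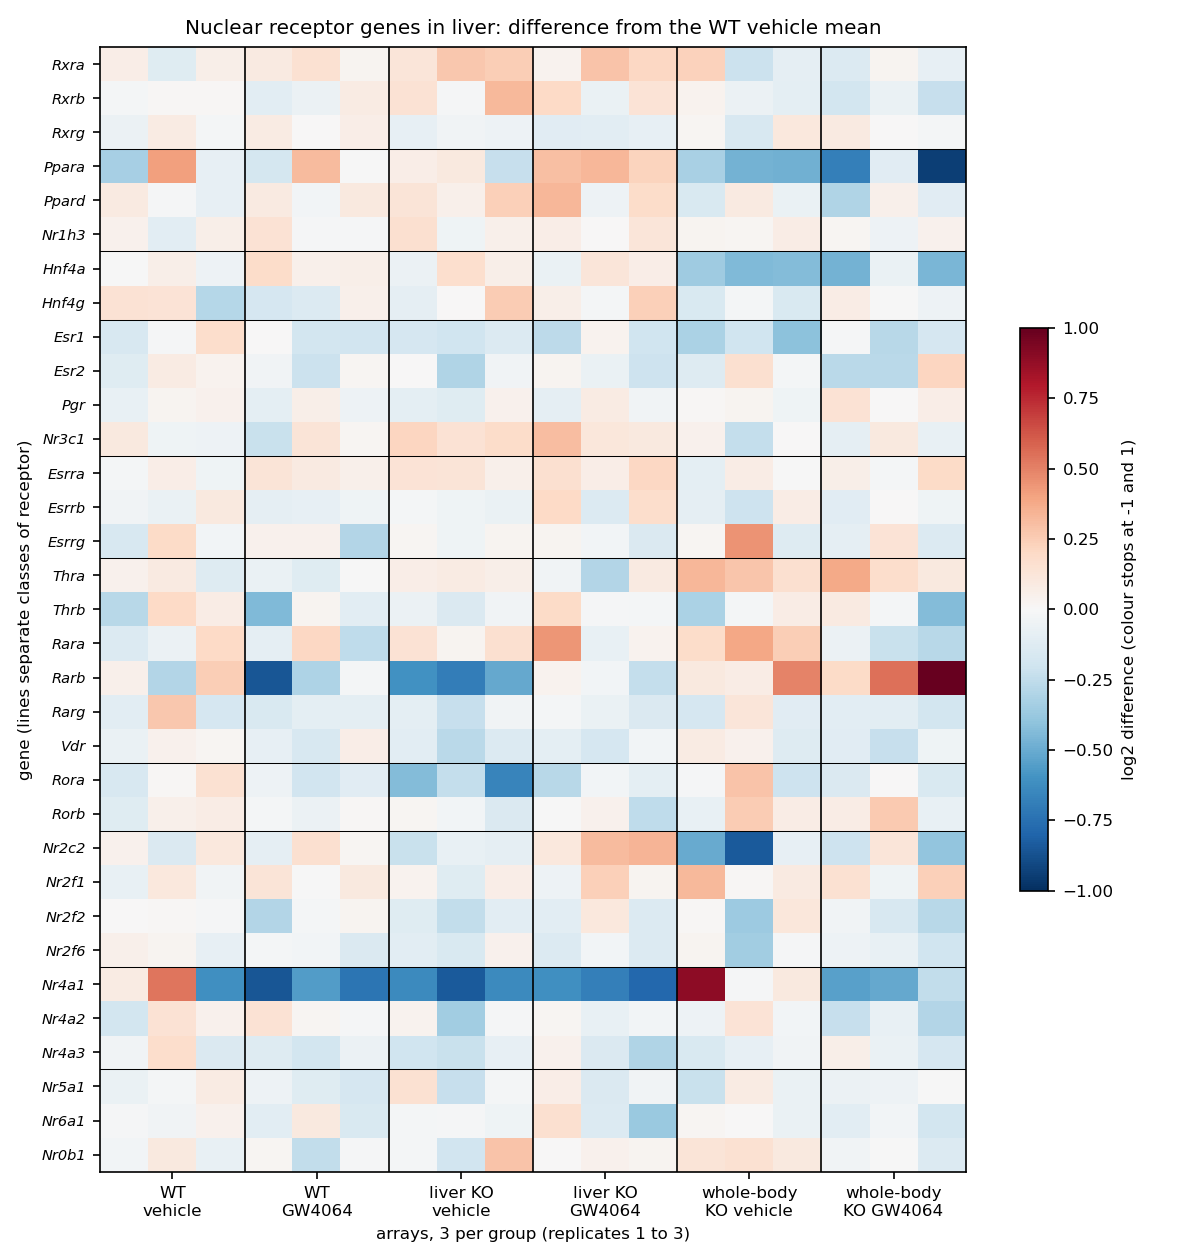
Log2 difference of each of the 33 nuclear receptor genes (rows, in classes divided by thin lines) from its WT vehicle mean, in each of the 18 arrays (columns, 3 per group). Most rows are pale in all groups, Hnf4a and Ppara are blue in most whole-body FXR KO arrays, Rarb is reddest in the whole-body FXR KO GW4064 arrays and blue in the liver FXR KO vehicle arrays, and Nr4a1 is blue outside the vehicle arrays of WT and whole-body FXR KO mice.

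Activation of FXR by GW4064 was compared with vehicle within each genotype, to ask which receptor genes respond to the agonist and whether the response needs FXR. In WT livers 0 of 33 members passed the adjusted test, against 0.194% of all genes. At an unadjusted p under 0.05 there was 1 member, Nr4a1, against 12.6% of all genes. In liver FXR KO livers 0 members passed the adjusted test (0% of all genes), and 3 were under the unadjusted threshold, Nr2c2, Rarb and Rora, all with higher values (5.02% of all genes). In whole-body FXR KO livers again 0 members passed (0% of all genes), and the 2 under the unadjusted threshold were Nr4a1 and Rara, both with lower values (6.25% of all genes). The WT effect of GW4064 on the members had a median of -0.06 (log2), with 10 of 33 above 0 and 23 below. Over all genes the median was -0.004, and 6047 of 12394 genes were above 0. For 31 of 33 members the 95% interval of the GW4064 effect in WT livers lay within 1.5 fold in either direction, and it reached past that for Rarb and Nr4a1. The same held for 30 members in liver FXR KO and 29 in whole-body FXR KO livers. These interval counts were not made over all genes, and 16 of the 33 members have low signal, so they describe no trait of the receptors. The GW4064 and vehicle arrays did not overlap for 0 members in WT livers (14.7% of all genes), 5 in liver FXR KO (12.2% of all genes) and 4 in whole-body FXR KO livers (10.3% of all genes). The effects in WT and in the knockouts share no array, and the sign was the same for 16 of 33 members between WT and liver FXR KO (48.5%, beside 52.4% of all genes) and for 18 between WT and whole-body FXR KO (54.5%, beside 52.8%).

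The difference between the GW4064 effects was tested directly. For WT minus liver FXR KO, 0 members passed the adjusted test (0% of all genes), and Nr4a1, Rarb and Rora, 3 members, were under the unadjusted threshold (7.46% of all genes). For WT minus whole-body FXR KO, 0 members passed (0% of all genes), and 2 were under the unadjusted threshold, Rara and Rarb (8.21% of all genes). For Rarb the effect in WT was 0.92 lower on the log2 scale than in liver FXR KO livers (log2 difference -0.92, standard error 0.31, limma adjusted p = 0.551).

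Loss of FXR was compared between genotypes, to ask whether receptor genes depend on FXR in the liver or elsewhere. With vehicle, 0 of 33 members passed the adjusted test between liver FXR KO and WT (0.879% of all genes), and the 3 under the unadjusted threshold, Nr4a1, Rarb and Rora, had lower values in the knockout (12.6% of all genes). Between whole-body FXR KO and WT with vehicle, 0 members passed (1.14% of all genes), and 5 were under the unadjusted threshold (13.3% of all genes): Esr1, Hnf4a, Nr2c2 and Ppara with lower values and Thra with a higher value. Between whole-body and liver FXR KO with vehicle, 1 member passed, Hnf4a (0.678% of all genes), and 7 were under the unadjusted threshold (12.2% of all genes), Hnf4a, Nr2c2, Nr3c1 and Rxra lower and Nr4a1, Rarb and Rora higher in the whole-body knockout.

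The same comparisons with GW4064 were added after the vehicle values had been seen. Between liver FXR KO and WT, 0 members passed (1.06% of all genes) and 0 were under the unadjusted threshold (14% of all genes). Between whole-body FXR KO and WT, 2 passed, Hnf4a lower and Rarb higher (4.64% of all genes), and 5 were under the unadjusted threshold, with Nr4a2, Ppara and Thra besides (19% of all genes). Between whole-body and liver FXR KO, 1 passed, Ppara lower (1.8% of all genes), and 9 were under the unadjusted threshold, Hnf4a, Nr2c2, Ppara, Ppard, Rara, Rxra and Rxrb lower and Rarb and Thra higher (15% of all genes). Over all 6 groups together, limma's F-test passed 3 of 33 members, Hnf4a, Rarb and Nr4a1 (6.08% of all genes), and 7 were under the unadjusted threshold, with Nr2c2, Ppara, Rora and Thra besides (22.1% of all genes). The comparisons of both knockouts with WT share the WT arrays. Those between the knockouts with vehicle and with GW4064 share none, and 26 of 33 members had the same sign in both (78.8%, beside 63.8% of all genes).

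**Figure D2:**
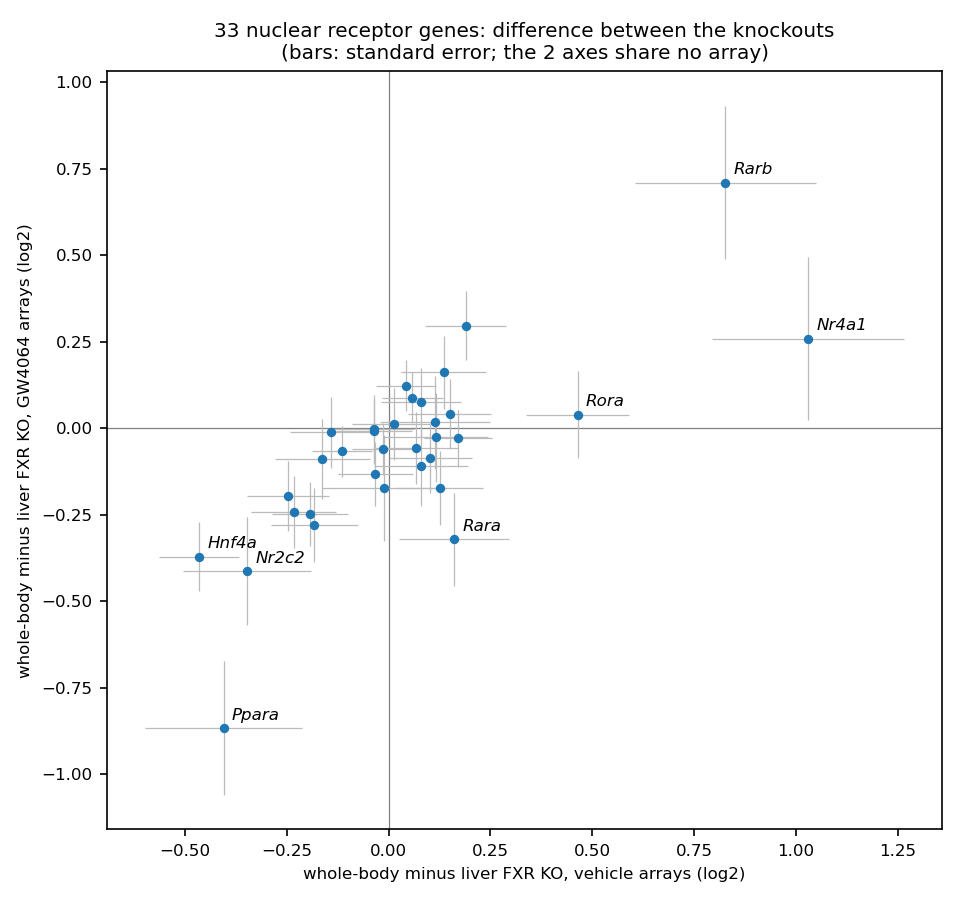
Whole-body minus liver FXR KO difference (log2) of the 33 members with vehicle (horizontal axis) and with GW4064 (vertical axis), with standard errors as bars. Hnf4a, Nr2c2 and Ppara lie below 0 on both axes, Rarb lies above 0 on both (0.83 and 0.71), and Nr4a1 (1.03 and 0.26) and Rora (0.46 and 0.04) stand out with vehicle.

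Hnf4a encodes an orphan receptor that binds DNA as a homodimer. In the whole-body knockout it read 11.98, 11.89 and 11.91 with vehicle and 11.86, 12.27 and 11.88 with GW4064. The WT livers read 12.33, 12.39 and 12.28 with vehicle and 12.52, 12.38 and 12.39 with GW4064. The liver knockout read 12.27, 12.50 and 12.40 with vehicle and 12.27, 12.46 and 12.40 with GW4064. All whole-body knockout arrays lay under every other array, clearly so but for replicate 2 with GW4064. That replicate lay only just under the lowest of the others (12.266 beside 12.269 in liver FXR KO GW4064 replicate 1). Hnf4a was lower in whole-body than in liver FXR KO livers with vehicle (log2 difference -0.47, standard error 0.10, limma adjusted p = 0.0481) and lower than in WT livers with GW4064 (-0.43, standard error 0.10, limma adjusted p = 0.0193). The other contrasts of the whole-body knockout did not pass, with -0.41 against WT with vehicle (limma adjusted p = 0.0536) and -0.37 against liver FXR KO with GW4064 (limma adjusted p = 0.0681). Over all 6 groups the F-test gave F = 9.90 (limma adjusted p = 0.0093). Liver FXR KO and WT livers differed by 0.05 with vehicle (95% interval -0.15 to 0.26). GW4064 against vehicle gave 0.09 in WT, -0.02 in liver FXR KO and 0.08 in whole-body FXR KO livers. Without the pair of arrays that stood apart the difference from WT with GW4064 was -0.32 and did not pass (limma adjusted p = 0.233). The first of these calls lay close to the threshold, and with each array left out in turn it was lost for 14 of 18 arrays, all but WT GW4064 replicate 1 and the 3 whole-body FXR KO GW4064 arrays, with adjusted p-values from 0.0154 to 0.179. The second was lost without WT GW4064 replicate 1 (-0.38), whole-body FXR KO GW4064 replicate 1 (-0.36) or replicate 3 (-0.37), with adjusted p-values up to 0.0953. The contrast with WT under vehicle passed when any 1 of the 3 whole-body FXR KO GW4064 arrays was left out.

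Hnf4a is read by 4 probe sets, which differ. The values above are of 1427001_s_at, the one with the highest mean. For whole-body against liver FXR KO with vehicle, 1427000_at gave -0.34, 1421983_s_at -0.04 and 1450447_at 0.09, beside -0.47. For whole-body FXR KO against WT with vehicle the other 3 gave -0.05, -0.03 and -0.08, beside -0.41. With GW4064 all 4 were below WT, at -0.26, -0.42, -0.37 and -0.43 in the order 1427000_at, 1421983_s_at, 1450447_at and 1427001_s_at. The mean of the 4 probe sets differed between the knockouts with vehicle by -0.19 (limma adjusted p = 0.307). Hnf4g, the gene of the related HNF4γ, ranged from 3.84 to 4.37 over all arrays and was under the unadjusted threshold in no comparison. Of 12 measured target genes of HNF4α, 1 fell with GW4064 in WT livers, Cyp8b1, a sterol hydroxylase of bile acid synthesis (log2 difference -2.44, standard error 0.42). Cyp8b1 was 2.81 higher in whole-body FXR KO than in WT livers with GW4064, and 0 targets passed between the knockouts. With the pair of arrays that stood apart left out, these values of Cyp8b1 were -1.77 and 2.40, both past the test, Pklr also passed against WT with GW4064, and Cyp8b1 passed between the knockouts with GW4064. The targets' median difference between whole-body and liver FXR KO was 0.03 with vehicle and -0.05 with GW4064, beside -0.006 and -0.02 over all genes.

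**Figure D3:**
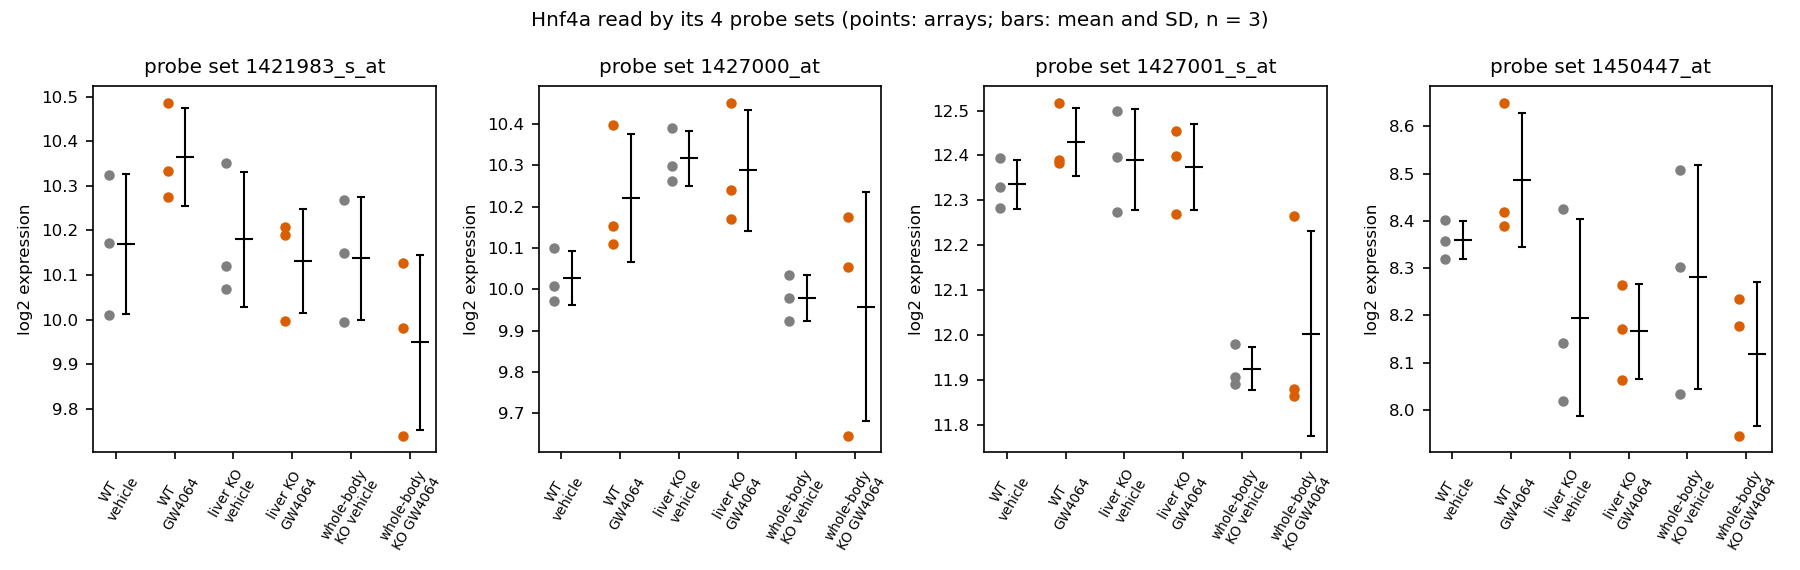
Log2 expression of Hnf4a by each of its 4 probe sets (panels, each with its own vertical axis) in the 6 groups, with 3 arrays as points (grey vehicle, orange GW4064) and the mean with its SD. In the panel of 1427001_s_at the whole-body FXR KO vehicle arrays lie between 11.89 and 11.98, below the WT and liver FXR KO arrays at 12.27 or more, whereas in the other panels the groups overlap more.

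The Hnf4a gene has 2 start sites with a promoter window in RefSeq (build GRCm38.p6). They are shown because the probe sets of the gene disagree and its transcripts can begin at either. Each is the 250 bases before the start on the plus strand, and no letters are in capitals because none of the motifs searched, described beside Rarb and Nr4a1, was found in them.
Hnf4a, upstream start, chr2:163506607-163506856: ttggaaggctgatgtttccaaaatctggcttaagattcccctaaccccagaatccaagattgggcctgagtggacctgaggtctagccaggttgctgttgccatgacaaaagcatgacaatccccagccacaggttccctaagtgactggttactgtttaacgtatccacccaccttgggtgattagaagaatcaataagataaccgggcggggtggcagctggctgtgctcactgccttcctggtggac
Hnf4a, downstream start, chr2:163546905-163547154: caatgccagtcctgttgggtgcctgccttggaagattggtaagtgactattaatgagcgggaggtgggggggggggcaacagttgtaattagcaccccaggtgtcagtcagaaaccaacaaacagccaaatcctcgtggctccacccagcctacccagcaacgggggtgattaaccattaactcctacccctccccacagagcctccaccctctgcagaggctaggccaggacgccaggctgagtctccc
No binding was measured in these mice.

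Ppara encodes the fatty acid sensor PPARα. It read 11.09, 11.83 and 11.34 in WT livers with vehicle and 11.25, 11.74 and 11.42 with GW4064. Liver FXR KO livers read 11.49, 11.52 and 11.19 with vehicle and 11.72, 11.76 and 11.65 with GW4064. The whole-body knockout read 11.10, 10.95 and 10.94 with vehicle and 10.74, 11.31 and 10.48 with GW4064. In both treatments every whole-body knockout array lay under every liver knockout array. With GW4064 the difference between the knockouts was -0.87 (standard error 0.19, limma adjusted p = 0.0278). With vehicle it was -0.40 and did not pass (limma adjusted p = 0.416), and the F-test over all groups gave an adjusted p of 0.0524. Without whole-body FXR KO GW4064 replicate 3, the lowest array, the difference with GW4064 was -0.69 (limma adjusted p = 0.118). Without the pair of arrays that stood apart, which includes that replicate, the difference was also -0.69 and did not pass. The call was also lost without any 1 of the 3 liver FXR KO GW4064 arrays or without whole-body FXR KO GW4064 replicate 1, with adjusted p-values up to 0.104.

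The target genes of PPARα moved in both directions. Of 14 measured, 2 passed between whole-body and liver FXR KO with GW4064: Pdk4, a kinase that limits glucose oxidation, rose (1.36, standard error 0.23), and Angptl4, a secreted inhibitor of lipoprotein lipase, fell (-1.23, standard error 0.25). The median of the 14 there was -0.13, with 5 above and 9 below 0. When the pair that stood apart was left out, Pdk4 was 1.37 and passed, and Angptl4 was -0.94 and did not (limma adjusted p = 0.0733). With vehicle 1 passed between the knockouts, Pdk4, with a rise of 1.14. Against WT with GW4064, 3 rose in the whole-body knockout, Acot1, Pdk4 and Ehhadh, and Acot1, an acyl-CoA thioesterase, also rose in the liver knockout (1.78, limma adjusted p = 0.005). Acot1 fell by 1.60 with GW4064 in WT livers (limma adjusted p = 0.0433), where the median of the 14 was -0.10. Without the pair, Acot1 still passed in both knockouts against WT with GW4064 (1.53 and 1.36), Pdk4 passed (1.65), and the calls were lost for Ehhadh (0.40) and for Acot1 with GW4064 in WT livers (-1.34, limma adjusted p = 0.176).

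Ppard, which encodes the widely expressed PPARδ, was under the unadjusted threshold once, at -0.28 between whole-body and liver FXR KO with GW4064. Nr1h3 read 8.65, 8.50 and 8.67 in WT livers with vehicle and 8.75, 8.60 and 8.59 with GW4064. The liver knockout read 8.77, 8.56 and 8.66 with vehicle and 8.68, 8.61 and 8.73 with GW4064, and the whole-body knockout 8.63, 8.63 and 8.68 with vehicle and 8.63, 8.56 and 8.65 with GW4064. All 6 groups overlapped, and Nr1h3 had the narrowest range of the 33 members, 0.26. The GW4064 effect on Nr1h3 in WT livers was 0.04 (95% interval -0.12 to 0.20). Of 11 LXR target genes, 1 passed in any comparison of groups, Scd1, a fatty acid desaturase. It was 0.69 higher in whole-body FXR KO than in WT livers with GW4064 (limma adjusted p = 0.0309), and 0.54 without the pair, which did not pass (limma adjusted p = 0.286). With GW4064 in WT livers the median of the 11 was -0.31, beside -0.004 over all genes. There 8 were below 0 and 3 under the unadjusted threshold, and without the pair the median was -0.28.

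Rxra encodes RXRα, the partner of FXR on DNA. It read 9.85, 9.66 and 9.84 in WT livers with vehicle and 9.88, 9.94 and 9.81 with GW4064. Liver FXR KO livers read 9.90, 10.05 and 10.03 with vehicle and 9.82, 10.07 and 9.99 with GW4064. The whole-body knockout read 10.02, 9.57 and 9.70 with vehicle and 9.65, 9.81 and 9.70 with GW4064. The liver knockout vehicle arrays all lay above the WT vehicle arrays, by 0.21 on average, which did not pass the test (standard error 0.10, limma adjusted p = 0.422). The whole-body knockout lay below the liver knockout by 0.23 with vehicle and 0.24 with GW4064 (log2 differences -0.23 and -0.24, limma adjusted p = 0.374 and 0.284). The other Rxra probe set, 1425762_a_at, gave 0.01 and -0.001. Rxrb was under the unadjusted threshold once (-0.25 between the knockouts with GW4064). Rxrg read 5.81, 5.95 and 5.85 in WT livers with vehicle and 5.95, 5.87 and 5.94 with GW4064, and 5.89, 5.71 and 5.98, then 5.96, 5.88 and 5.85, in the whole-body knockout. In the liver knockout it read 5.79, 5.84 and 5.82 with vehicle and 5.76, 5.77 and 5.79 with GW4064. These GW4064 arrays lay under the vehicle arrays by only 0.04 on average (limma adjusted p = 1.0).

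Nr3c1 encodes the glucocorticoid receptor. It read 9.22, 9.09 and 9.08 in WT livers with vehicle and 8.90, 9.25 and 9.15 with GW4064. The liver knockout read 9.35, 9.27 and 9.31 with vehicle and 9.44, 9.24 and 9.22 with GW4064, and the whole-body knockout 9.17, 8.89 and 9.13 with vehicle and 9.04, 9.23 and 9.05 with GW4064. The liver knockout vehicle arrays lay above those of both other genotypes, with differences of 0.18 from WT (limma adjusted p = 0.481) and -0.25 for whole-body against liver knockout (limma adjusted p = 0.311). The other probe sets of Nr3c1 gave -0.14 and 0.25 for the latter difference. Of 16 glucocorticoid receptor targets, Sgk1, a kinase, rose in whole-body FXR KO against WT livers (1.60 with vehicle and 2.26 with GW4064). With GW4064, G6pc, the glucose-6-phosphatase gene, rose by 1.90 in liver FXR KO and by 1.89 in whole-body FXR KO against WT livers. Angptl4, described with the PPARα targets, is also on this list. Dusp1, a phosphatase, also rose in the whole-body knockout against WT (1.58), and Pck1, the gluconeogenic carboxykinase, fell by 0.61. Lcn2, an acute-phase protein, rose with GW4064 in WT livers (5.50, standard error 1.05). Without the pair of arrays that stood apart, Sgk1 (1.54) and G6pc (1.41 in liver and 1.53 in whole-body FXR KO) still passed with GW4064, and Dusp1 (1.69), Pck1 (-0.71) and Lcn2 (4.47, limma adjusted p = 0.134) did not. The median of the 16 targets with GW4064 in WT livers was 0.36 (11 above 0, 9 under the unadjusted threshold), and 0.40 without the pair. In whole-body FXR KO against WT livers it was 0.50 with vehicle (14 above 0) and -0.28 with GW4064 (12 below 0). Esr1, the gene of estrogen receptor α, was lower in whole-body FXR KO than in WT livers with vehicle at the unadjusted threshold (-0.31, limma adjusted p = 0.182). Esr2, Pgr, Esrra, Esrrb and Esrrg were under it in no comparison.

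**Figure D4:**
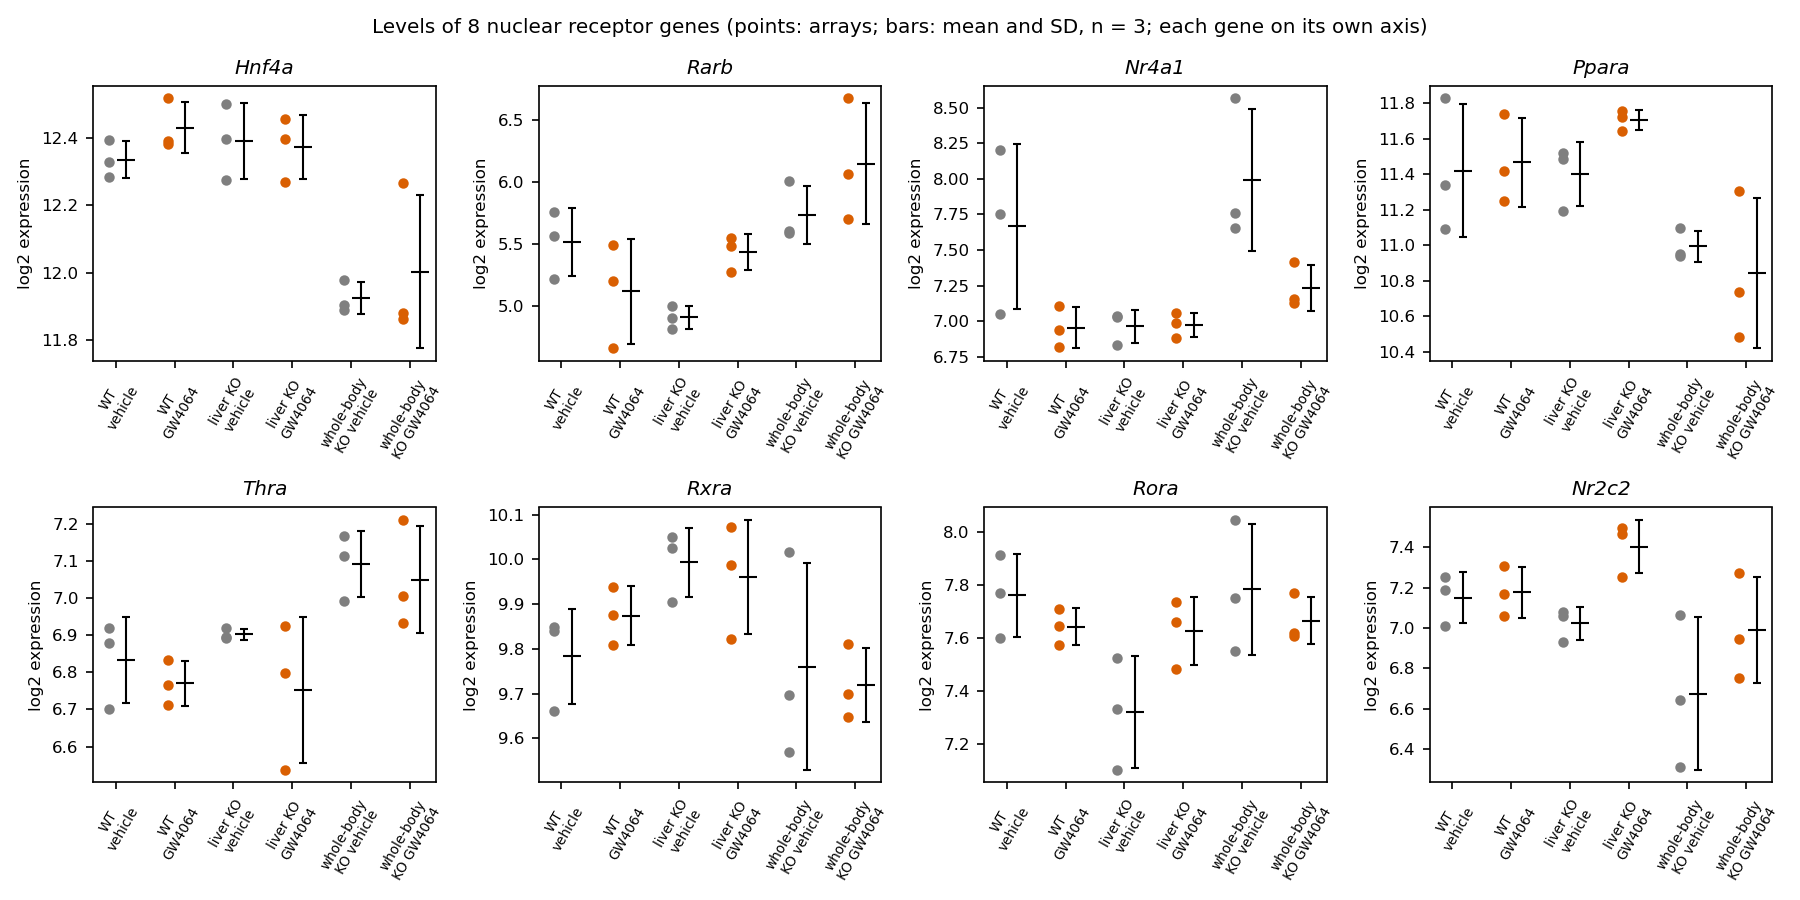
Log2 expression of 8 nuclear receptor genes (panels, each with its own vertical axis) in the 6 groups, with 3 arrays as points (grey vehicle, orange GW4064) and the mean with its SD. Hnf4a and Ppara are lowest in the whole-body FXR KO groups, Rarb and Thra are highest there, and Nr4a1 is high in the vehicle groups of WT and whole-body FXR KO mice with wide spread.

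Rarb encodes RARβ, a receptor of retinoic acid whose own gene is a classic retinoic acid target. The window of 250 bases before its start (RefSeq, build GRCm38.p6, minus strand, printed 5′ to 3′ along the gene) is shown because its level moved and because it holds the spaced half-sites that retinoid receptors are known to bind. Capitals mark the half-site AGGTCA and its variants, which are AGTTCA as well as GGTTCA and the form GGGTCA, searched on both strands.
Rarb, chr14:16575477-16575726: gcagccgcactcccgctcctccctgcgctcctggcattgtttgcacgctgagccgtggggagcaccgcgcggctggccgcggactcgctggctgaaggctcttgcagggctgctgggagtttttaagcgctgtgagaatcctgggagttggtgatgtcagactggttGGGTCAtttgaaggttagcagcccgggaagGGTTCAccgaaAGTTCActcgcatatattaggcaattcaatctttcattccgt
Counted from the start, the half-sites begin at -83, -53 and -42, and the last pair forms a direct repeat with 5 bases between. Such a pair was found in 0.0883% of the 32851 windows of all genes, and in 1 of 51 windows of the listed members, that of Rarb. Single half-sites were found in 38.6% of all windows and in 18 of 51 member windows. The inverted repeat with 1 base between, the form that FXR with RXRα is known to bind, was in 0.0304% of all windows and the direct repeat with 1 base between in 0.164%, and each was in 0 member windows. A match is a run of letters and was not tested for binding.

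Rarb read 5.57, 5.22 and 5.75 in WT livers with vehicle and 4.66, 5.21 and 5.49 with GW4064. The liver knockout read 4.90, 4.82 and 5.0 with vehicle and 5.55, 5.49 and 5.27 with GW4064. The whole-body knockout read 5.61, 5.59 and 6.01 with vehicle and 5.70, 6.06 and 6.67 with GW4064. The lowest levels were in the liver knockout with vehicle and in WT GW4064 replicate 1, and the highest in the whole-body knockout. With GW4064 Rarb was higher in whole-body FXR KO than in WT livers, without overlap (log2 difference 1.03, standard error 0.22, limma adjusted p = 0.0130). With the pair of arrays that stood apart left out, one at each end of this comparison, the difference was 0.54 (limma adjusted p = 0.179). It was 0.80 without WT GW4064 replicate 1 alone (limma adjusted p = 0.0779) and 0.77 without whole-body FXR KO GW4064 replicate 3 alone (limma adjusted p = 0.0510). The other contrasts did not pass, with 0.83 and 0.71 for whole-body against liver knockout with vehicle and with GW4064, -0.60 for liver knockout against WT with vehicle, and 0.53 for GW4064 in the liver knockout. The F-test over all groups gave F = 7.86 (limma adjusted p = 0.0187). Without liver FXR KO vehicle replicate 2 it gave an adjusted p of 0.0515.

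Markers of stellate cells and fibroblasts moved in the same comparison. With GW4064, 7 of 13 such markers rose in whole-body FXR KO against WT livers (Pdgfrb, Dcn, Col1a1, Col1a2, Col3a1, Vim and Rgs5). There 13 of 13 were above 0, and their median difference was 1.01. The liver knockout was also above WT with GW4064, with 12 of 13 above 0 (median 0.48) and 1 past the test, Rgs5 (1.40). With vehicle, 10 of 13 were above 0 in whole-body FXR KO against WT livers (median 0.37), and 1 passed, Pdgfrb. Between the knockouts with GW4064, 3 of 13 rose, Pdgfrb, Col1a2 and Col3a1 (median 0.44). When the pair that stood apart was left out, 6 of 13 passed in whole-body FXR KO against WT, all of the 7 but Col1a1, with a median of 0.62. Between the knockouts the same 3 passed (median 0.38). In liver FXR KO against WT the median was then 0.19, and Rgs5 still passed (1.03). Per array, their median difference from the WT vehicle mean was 0.19 to 0.52 in the 6 whole-body knockout arrays, -0.10 to 0.08 in the 6 liver knockout arrays and -0.74, -0.24 and -0.30 in the WT GW4064 arrays. The summed linear level of the 13 markers was 2590 to 3468 in WT vehicle, 1294 to 2471 in WT GW4064, 2829 to 3245 in liver FXR KO vehicle, 2589 to 3231 in liver FXR KO GW4064, 3824 to 4226 in whole-body FXR KO vehicle and 3847 to 4863 in whole-body FXR KO GW4064 arrays. In the liver knockout with vehicle the array medians of the markers were -0.10 to -0.02, while Rarb differed from WT by -0.60. The stellate cell marker Lrat ranged from 3.65 to 4.42 and Des from 5.54 to 6.31 over all arrays, and neither passed in any comparison. The part of these markers in the difference of Rarb was not tested. Among 6 measured genes of retinoic acid receptor targets, Rarb itself included, Cyp26a1, a retinoic acid hydroxylase, rose in whole-body against liver FXR KO with vehicle (1.69, standard error 0.34).

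**Figure D5:**
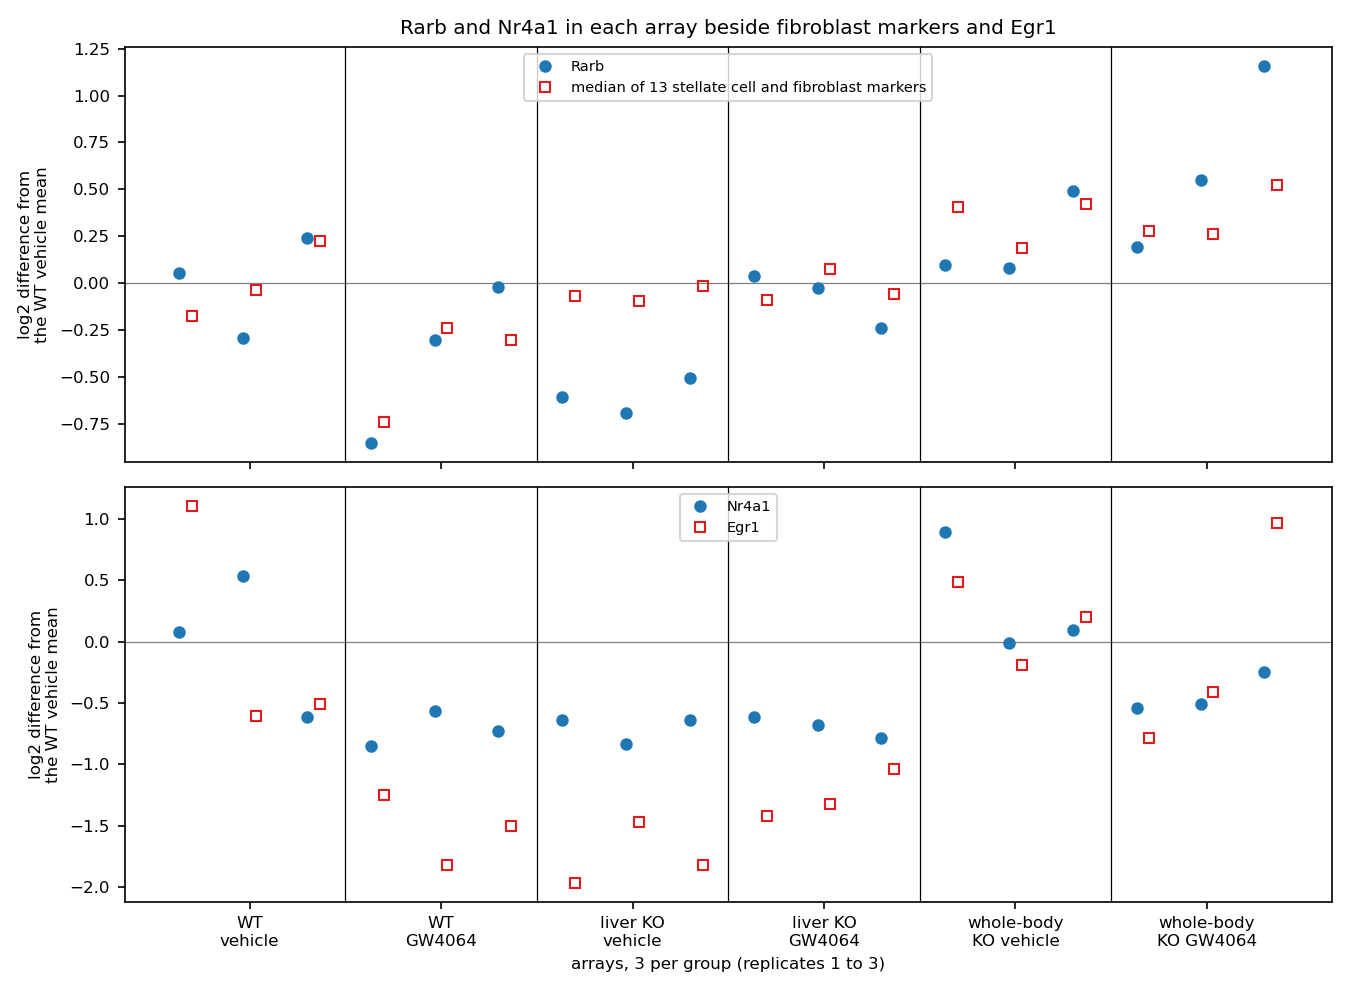
Log2 difference from the WT vehicle mean in each of the 18 arrays (horizontal axis, 3 per group) for Rarb beside the median of 13 stellate cell and fibroblast markers (upper panel) and for Nr4a1 beside Egr1 (lower panel). WT GW4064 replicate 1 is low for both Rarb and the markers, the liver FXR KO vehicle arrays are low for Rarb with markers near 0, and Nr4a1 and Egr1 are both below 0 in all WT GW4064 and liver FXR KO arrays.

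Thra, the gene of thyroid hormone receptor α, read 6.88, 6.92 and 6.70 in WT and 7.17, 7.11 and 6.99 in whole-body FXR KO livers with vehicle. With GW4064 it read 6.77, 6.71 and 6.83 in WT and 7.21, 7.01 and 6.93 in the whole-body knockout. In the liver knockout it read 6.90, 6.92 and 6.89 with vehicle and 6.80, 6.54 and 6.92 with GW4064. The whole-body knockout arrays lay above the WT arrays in both treatments, by 0.26 and 0.28, neither of which passed (limma adjusted p = 0.256 and 0.128). The other Thra probe set gave -0.03 and 0.08. Thrb, the gene of the main thyroid hormone receptor of hepatocytes, ranged from 5.43 to 6.08 and was under the unadjusted threshold in no comparison. Of 8 thyroid hormone targets 0 passed with vehicle, and with GW4064 Gpd2 rose in liver FXR KO against WT livers, Idh3a in whole-body FXR KO against WT livers and Me1 in the whole-body against the liver knockout. Without the pair of arrays that stood apart, Me1 still passed (1.52), and Gpd2 (0.88, limma adjusted p = 0.0507) and Idh3a (0.73, limma adjusted p = 0.0549) did not. Rara, the gene of RARα, read 5.51, 5.72 and 5.57 in whole-body FXR KO livers with vehicle and 5.27, 5.10 and 5.05 with GW4064. These do not overlap, and the difference of -0.46 did not pass (limma adjusted p = 0.773). Rarg ranged from 6.43 to 6.93 and Vdr, the vitamin D receptor gene, from 5.08 to 5.43.

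Nr4a1 encodes an orphan receptor whose gene is switched on within minutes by growth and stress signals. The window of 250 bases before its start (RefSeq, build GRCm38.p6, plus strand) is shown with the CREB half-site TGACG of either strand in capitals, because such sites are known in the promoters of immediate early genes.
Nr4a1, chr15:101266596-101266845: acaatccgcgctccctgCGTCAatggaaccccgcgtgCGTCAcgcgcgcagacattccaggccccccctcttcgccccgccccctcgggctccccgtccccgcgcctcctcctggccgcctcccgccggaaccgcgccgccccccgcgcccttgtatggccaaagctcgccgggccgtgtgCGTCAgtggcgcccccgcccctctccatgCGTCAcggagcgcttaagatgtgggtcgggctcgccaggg
The 4 matches, all read as CGTCA here, begin at -233, -213, -69 and -40 from the start. The half-site was in 17.8% of all windows and in 12 of 51 member windows, among them those of Nr4a2 and Nr4a3. The full site TGACGTCA was in 1.55% of all windows and, among members, in that of Nr2e1 alone, and the EGR site GCGTGGGCG was in 0.536% and in 0 member windows. The full site, where it occurs, contains the half-site.

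Nr4a1 read 7.75, 8.20 and 7.05 in WT livers with vehicle and 6.82, 7.11 and 6.94 with GW4064. Liver FXR KO livers read 7.03, 6.83 and 7.03 with vehicle and 7.05, 6.99 and 6.88 with GW4064. The whole-body knockout read 8.57, 7.65 and 7.76 with vehicle and 7.13, 7.16 and 7.42 with GW4064. High values were in the vehicle arrays of the whole-body knockout and in 2 of 3 WT vehicle arrays, and all others lay between 6.82 and 7.42. The F-test over all groups passed (F = 6.95, limma adjusted p = 0.0281), and it lost the call without WT vehicle replicate 1, liver FXR KO vehicle replicate 2, liver FXR KO GW4064 replicate 2 or whole-body FXR KO vehicle replicate 1 (adjusted p up to 0.0612). No single contrast passed. GW4064 against vehicle gave -0.71 in WT livers (standard error 0.24, limma adjusted p = 0.222), 0.01 in liver FXR KO and -0.76 in whole-body FXR KO livers (limma adjusted p = 0.784). With vehicle the liver knockout lay 0.70 under WT (log2 difference -0.70, limma adjusted p = 0.195) and the whole-body knockout 1.03 above the liver knockout (limma adjusted p = 0.0604). The difference between liver knockout and WT was -0.44 without WT vehicle replicate 2 (limma adjusted p = 0.507) and -1.01 without WT vehicle replicate 3, where it passed (limma adjusted p = 0.0433). The GW4064 effect in whole-body FXR KO livers was -0.47 without whole-body FXR KO vehicle replicate 1 (limma adjusted p = 0.911).

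Of 21 immediate early genes, 1 passed between whole-body and liver FXR KO with vehicle, Egr1, a zinc finger factor, with a rise of 1.92 (limma adjusted p = 0.0494). Egr1 read 9.23, 7.52 and 7.61 in WT livers with vehicle and 6.87, 6.29 and 6.61 with GW4064. It read 6.15, 6.65 and 6.30 in the liver knockout and 8.61, 7.93 and 8.32 in the whole-body knockout with vehicle. With GW4064 it read 6.70, 6.79 and 7.08 in the liver knockout and 7.34, 7.71 and 9.09 in the whole-body knockout. Like Nr4a1, Egr1 was low in every WT GW4064 and liver knockout array. In the whole-body knockout the GW4064 arrays of Nr4a1 lay under its vehicle arrays, whereas those of Egr1 overlapped. Egr1 was chosen after its values were seen, and the median of the 21 genes with GW4064 in WT livers was -0.04. The list as a whole had a median difference between the knockouts of 0.06 with vehicle (15 of 21 above 0) and 0.28 with GW4064 (16 of 21 above 0, 9 under the unadjusted threshold and 0 past the adjusted test). With GW4064, Dusp1 rose and Ier2 fell (-0.89) in whole-body FXR KO against WT livers, where the median was 0.24 and 10 of 21 were under the unadjusted threshold. With the pair of arrays that stood apart left out, these medians with GW4064 were 0.22 (4 under the unadjusted threshold) and 0.15 (6 under it), and neither Dusp1 nor Ier2 (-0.76) passed. The time of collection and handling of each mouse is not given per sample, and its part in these differences was not tested. Nr4a2 and Nr4a3, the related immediate early receptor genes, ranged from 4.92 to 5.41 and from 6.54 to 7.02. Nr4a2 was under the unadjusted threshold in 1 comparison, at -0.25 in whole-body FXR KO against WT livers with GW4064.

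Rora, which encodes a receptor that activates at clock response elements, read 7.60, 7.77 and 7.91 in WT and 7.33, 7.52 and 7.10 in liver FXR KO livers with vehicle. The whole-body knockout with vehicle read 7.75, 8.05 and 7.55. The liver knockout arrays lay under both other groups, with -0.44 against WT and 0.46 for whole-body against liver knockout (limma adjusted p = 0.12 and 0.113). With GW4064 these differences were -0.02 and 0.04. The probe set 1420583_a_at gave -0.41 and 0.46 with vehicle, and 1424035_at -0.26 and 0.11. Rorb ranged from 4.38 to 4.90. Nr2c2, the gene of the orphan receptor TR4, read 6.65, 6.31 and 7.07 in whole-body FXR KO livers with vehicle, 7.19, 7.01 and 7.25 in WT and 6.93, 7.08 and 7.06 in liver FXR KO livers. It was -0.48 in whole-body FXR KO against WT livers (limma adjusted p = 0.182), and its other 3 probe sets gave -0.25, 0.02 and -0.02. With GW4064 in the liver knockout it read 7.25, 7.46 and 7.49, above its own vehicle arrays (0.38, limma adjusted p = 0.935). Nr2f1 ranged from 3.28 to 3.73, Nr2f2 from 7.79 to 8.26 and Nr2f6 from 8.53 to 8.93, and these COUP-TF family genes were under the unadjusted threshold in no comparison. Nr5a1 ranged from 4.16 to 4.54, Nr6a1 from 4.69 to 5.22 and Nr0b1, the gene of the corepressor-like receptor DAX1, from 3.70 to 4.23, likewise with no comparison under the unadjusted threshold.

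Receptors outside the members were compared beside them. Of 9 measured, Nr0b2, the gene of SHP, rose by 1.85 with GW4064 in WT livers (standard error 0.34, limma adjusted p = 0.0433) and was lower in whole-body FXR KO than in WT livers with GW4064 (log2 difference -2.20). When the pair that stood apart was left out, these were 1.34 (limma adjusted p = 0.0508) and -1.41 (limma adjusted p = 0.00563). Nr2c1, the gene of TR2, the closest relative of TR4, was lower in liver FXR KO than in WT livers with vehicle (-0.88) and with GW4064 (-0.49), and higher in whole-body than in liver FXR KO with vehicle (0.50). Nr1d2, a clock repressor, was lower in whole-body than in liver FXR KO with GW4064 (-0.67). Without the pair Nr1d2 still passed (-0.55), and Nr2c1 in liver FXR KO against WT with GW4064 did not (-0.45, limma adjusted p = 0.113). Of 26 measured coregulators, Pprc1, a coactivator of the PGC-1 family, was lower in whole-body than in liver FXR KO with vehicle (-0.63), and Tob1 was higher in whole-body FXR KO than in WT livers with GW4064 (0.49, and 0.43 without the pair, which did not pass). In the GW4064 comparisons within a genotype 0 of 26 passed.

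Markers of other liver cells also differed between groups. All 12 endothelial markers were below 0 with GW4064 in WT livers (median -0.40) and 11 of 12 in the whole-body knockout (median -0.31), although 0 passed the adjusted test in either, with 10 and 6 under the unadjusted threshold. The stellate cell and fibroblast markers had a median of -0.44 with GW4064 in WT livers, with 11 of 13 below 0, 10 under the unadjusted threshold and 0 past the adjusted test, and of 0.09 in the whole-body knockout. Without the pair of arrays that stood apart, the endothelial medians were -0.22 and -0.20 and the stellate and fibroblast medians -0.28 and 0.02. With GW4064, the endothelial markers were above WT in both knockouts, 12 of 12 in the liver knockout (median 0.39) and 10 of 12 in the whole-body knockout (median 0.34). Without the pair these medians were 0.19 and 0.20. In the liver knockout 0 of them passed, and in the whole-body knockout 1 did, Lyve1 (1.24), which without the pair was 1.03 and did not pass. Kupffer cell and macrophage markers had medians of 0.31 and 0.33 in liver and whole-body FXR KO against WT with vehicle, with 10 of 11 above 0 in each and 0 past the adjusted test. Of them 1, Cd163, was lower in whole-body than in liver FXR KO with GW4064 (-1.09), and without the pair it was -0.98 and did not pass. Of 8 hepatocyte, 6 cholangiocyte and 10 lymphocyte and neutrophil markers 0 passed in these comparisons. The part of these markers in the values of the receptor genes was not tested.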

How the data were processed

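The authors normalized the 18 arrays with RMA (version not stated, per the labels' processing notes) and deposited log2 expression per probe set, used as it stands. RMA corrects background, normalizes by quantiles, which can hide a shift shared by all genes, and summarises probes by median polish. The methods name an ST array, whereas the probe set identifiers are of a 3′ array, so genes were named from its platform annotation. Of 22690 probe sets, 20393 have 1 symbol, 691 several and 1606 none. For a gene with several probe sets, the one whose mean across the 18 arrays was highest was used.

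Tests used limma 3.58.1 in R 4.3.3 with a mean per group, 12 residual degrees of freedom, two-sided p-values and Benjamini-Hochberg adjustment over 12394 genes. The script was tested on simulated data. Members and lists were chosen with earlier results of these data known, and 3 comparisons with GW4064 were added after seeing the data. Values in every array are given for members past the adjusted threshold and for Rxra, Ppara, Hnf4a, Nr3c1 and Nr1h3. They are also given for the largest non-overlapping rise and fall in each comparison with WT under vehicle or within a genotype. Arrays of Rara, Rora, Nr2c2 and Egr1 were chosen after their values were seen. Promoter windows are RefSeq's (GRCm38.p6, 250 bases), which 29 of 33 measured members have. Alternatives were other fits, priors, array weights, normalizations, probe set rules, thresholds and each array left out. Precision is limited by having 3 arrays in a group. Figures were drawn with matplotlib 3.10.9 in Python 3.11.15.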

Additional observations from a re-analysis of the deposited data

How the results depend on the processing

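Of 397 values over 14 results for single members, 3 of them F-tests without a direction, 0 changed direction under the alternatives run on the whole table. Single other probe sets did turn the sign for Hnf4a, Thra, Nr3c1, Rxra and Nr2c2 in differences given beside them above. Of these values 346 kept their side of the threshold, 40 lost the call and 11 gained it. The number of members called for whole-body against liver FXR KO with vehicle, 1 as reported, was 3 with only the arrays compared, 4 with array weights, 0 with the mean of probe sets and 2 without the 2 arrays that stood apart (chosen after seeing the data). For whole-body FXR KO against WT with vehicle, 0 as reported, it was 1, Hnf4a, with a trended and robust prior, array weights, quantile normalization, dim genes left out or the 2 arrays left out. For whole-body FXR KO against WT with GW4064, 2 as reported, it was 0 with only the arrays compared, 1 with dim genes left out, which removes Rarb from the test, and 0 without the 2 arrays. For whole-body against liver FXR KO with GW4064, 1 as reported, it was 0 with only the arrays compared, 0 with array weights, 2 with quantile normalization, 2 with dim genes left out and 0 without the 2 arrays. At the thresholds of the study (an unadjusted p under 0.05, here limma's, and 1.5 fold), the members called, each beside the share of all genes, were 1 for GW4064 in WT (1.71%), 0 in liver FXR KO (0.46%) and 1 in whole-body FXR KO (0.541%), 2 for liver FXR KO against WT with vehicle (1.45%), 0 for whole-body FXR KO against WT with vehicle (1.69%) and 2 for the knockouts with vehicle (1.5%). With GW4064 they were 0 for liver FXR KO against WT (2.3%), 2 for whole-body FXR KO against WT (3.91%), here Ppara and Rarb, and 2 for the knockouts (2.57%). For the difference of the GW4064 effect in WT from those in liver and whole-body FXR KO they were 2 (1.81%) and 1 (1.98%). With each array left out in turn, the counts ranged from 0 to 1 for liver FXR KO against WT with vehicle, from 0 to 1 for whole-body FXR KO against WT with vehicle, from 0 to 2 for the knockouts with vehicle, from 0 to 3 for whole-body FXR KO against WT with GW4064, from 0 to 2 for the knockouts with GW4064 and from 1, without liver FXR KO vehicle replicate 2, to 5, without whole-body FXR KO GW4064 replicate 2, for the F-test. In the other comparisons they stayed at 0. The causes were not tested. A fit of only the arrays compared and the thresholds of the study do not apply to the F-test.

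The replicate numbers were used as a block in a further fit. Deviations of same-numbered arrays from their group means correlated between -0.229 and 0.339 (median 0.0658), and 13 of 45 pairs were over 0.1. Those of differently numbered arrays correlated between -0.317 and 0.237 (median -0.0169), and 12 of 90 pairs were over 0.1. Same-numbered arrays were thus somewhat more alike. Whether the numbers mark a batch or a pairing was not tested, and the labels name neither. With the replicate block 3 members were called for whole-body FXR KO against WT with GW4064, 4 by the F-test and 1 in each comparison of the knockouts, and it changed no other count.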
